A study of Mus musculus with 7 samples.

Results

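Genes of 4 families that carry out or restrain the breakdown of the extracellular matrix were followed in C2C12 myotubes given electrical pulse stimulation (EPS). The families are the matrix metalloproteinases (MMP), the ADAM and ADAMTS proteases, and the tissue inhibitors of metalloproteinases (TIMP). Members were all genes whose symbol is Mmp, Timp, Adam or Adamts followed by a number and at most 1 letter. They numbered 78 of the 26607 genes listed, with 23 Mmp, 32 Adam, 19 Adamts and 4 Timp genes. Of these, 36 had a mean level of at least 0.5 CPM (counts of a gene per 1000000 counts of its library) over the 7 libraries and are described below, namely 8 Mmp, 12 Adam, 12 Adamts and all 4 Timp genes. By mean CPM, not divided by gene length, the lowest of the 36 was Timp4, with 0.782 CPM, and the highest of the others was Adam4, with 0.417 CPM. Of the others, 21 had no read in any library and 21 had reads but a mean under 0.5 CPM.

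C2C12 is a single line of mouse myoblasts that form myotubes once serum is lowered, so every library shares 1 genetic background and no other tissue is present. The control group (3 libraries, replicates 1, 3 and 4) was left untreated, and the EPS group (4 libraries, replicates 1 to 4) received pulses at 1 Hz for 24 h, starting after 3 days of differentiation, and then 1 h of rest. Poly(A) RNA was sequenced, and 1 value per gene and library was deposited. The labels do not say that the libraries of a group came from separate cultures, so the P-values measure the spread between these libraries, which may be technical. The libraries held between 16616917 and 22120641 reads, and 3 reads, taken as the smallest level that can be told from 0, corresponded to 0.136 to 0.181 CPM. This floor covers counting error only. Control replicate 4 stood apart, with 359 genes at 1 to 5 reads, where each of the others had 2670 to 3181.

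MMPs are secreted or membrane-bound zinc proteases that cut collagens, other matrix proteins and one another. ADAMs are membrane proteins, many of which release the outer part of other membrane proteins, and ADAMTS proteases are their secreted relatives that cut proteoglycans or trim procollagens. TIMPs bind the active site of these enzymes. In muscle, these proteins take part in myoblast migration and fusion and in the remodeling of the matrix around the fibers.

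The question was which of these genes differed between EPS and control myotubes. Adamts1, Adamts5 and Mmp15 fell in the EPS group, to 38.9%, 38.9% and 48.6% of the control mean, and no member was called higher. Both Adamts genes encode proteases that cut the large proteoglycans versican and aggrecan, and Mmp15 encodes a membrane-type MMP. A change was called in limma when the two-sided P, before adjustment, was under 0.01 and the fold change over 2 on the log2(CPM + 1) scale, which understates the change of low genes. These 3 genes are 8.33% of the 36, while 0.644% of the 13047 genes with a mean of at least 0.5 CPM, and 0.439% of all 19144 genes tested, were called lower. Called higher were 0 of the 36, against 1.42% of the 13047 genes and 0.966% of all genes tested. On recovered reads, edgeR and DESeq2 called the same 3 genes lower, against 1.57% and 1.4% of all genes tested, and 0 members higher, against 1.72% and 1.66%. At an unadjusted P under 0.05, limma called 6 members lower, against 3.21% of all genes tested, and 1 higher, against 8.4%. At the same threshold, edgeR called 10 lower, against 5.95%, and 2 higher, against 5.6%, and DESeq2 called 11 lower, against 5.42%, and 2 higher, against 5.19%. At a Benjamini-Hochberg adjusted p under 0.05 over all genes, limma called 0 of the 36 (0.141% of all genes tested), while edgeR called 3 (1.51%). DESeq2, run with its default filtering of genes before the adjustment, called 4 (2.6%).

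**Figure D1:**
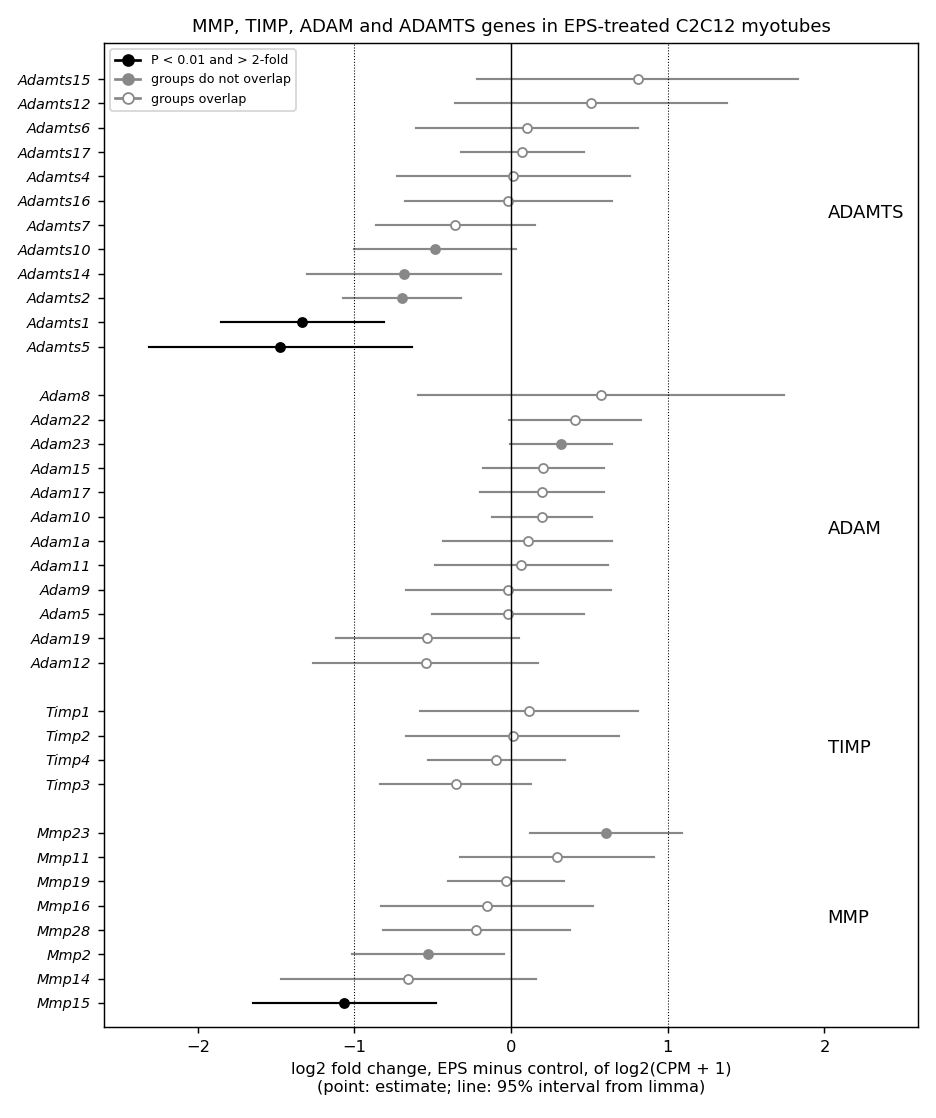
The log2 fold change of log2(CPM + 1), EPS (n = 4) minus control (n = 3), is plotted on the horizontal axis for each of the 36 described genes, grouped by family, with lines for the 95% interval from limma and dotted lines at a 2-fold change. Filled black points, Adamts1, Adamts5 and Mmp15, passed both thresholds, filled gray points are genes whose groups do not overlap, and open points are genes whose groups overlap.

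The groups did not overlap for 9 of the 36 genes (25%), against 10.6% of all genes tested and 12.8% of those with a mean of at least 0.5 CPM. The EPS libraries all lay below the control libraries for 7 of them, Adamts1, Adamts2, Adamts5, Adamts10, Adamts14, Mmp2 and Mmp15, and all above for Mmp23 and Adam23. Such a pattern was seen in 2.85% (below) and 7.76% (above) of all genes tested, and in 3.59% and 9.24% of those with a mean of at least 0.5 CPM. The median log2 fold change was -0.02 over the 36 genes, against 0.10 over all genes with a mean of at least 1 CPM. By family it was -0.19 for the 8 Mmp genes, 0.15 for the 12 Adam genes, -0.19 for the 12 Adamts genes and -0.04 for the 4 Timp genes. Scaling by the median of ratios or by quantiles brought that median over genes with a mean of at least 1 CPM to -0.0048 and 0.0052. Calls over all genes numbered 84 lower and 185 higher as deposited, 120 and 134 with median-of-ratios scaling, and 122 and 130 with quantile normalization. Under both scalings, Adamts1, Adamts5 and Mmp15 were again the described members called lower, and none of the 36 was called higher.

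Levels were compared between genes only after division by exon length, the union of exons in GENCODE M21, as CPM per kb. The inhibitor Timp2 had the highest mean of the 36 genes, 335 CPM per kb, followed by Timp1 with 296. Next came the gelatinase Mmp2 with 160 CPM per kb and its membrane-bound activator Mmp14 with 106, then Timp3 with 65.8 and Adam9 with 63.3. The library values overlapped in 33 of the 35 pairs of neighbors in this order, including each pair from Timp2 to Adam9. They were apart only between Adam9 and Adam10 and between Mmp19 and Adamts16. Adam10, Mmp15, Adamts4 and Adamts5 lay between 15.9 and 20.6 CPM per kb, and Adam23 was lowest with 0.079. The means of 2 inhibitors head the order, and the genes called lower are 8 (Mmp15), 10 (Adamts5) and 15 (Adamts1) in the order of the 36.

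**Figure D2:**
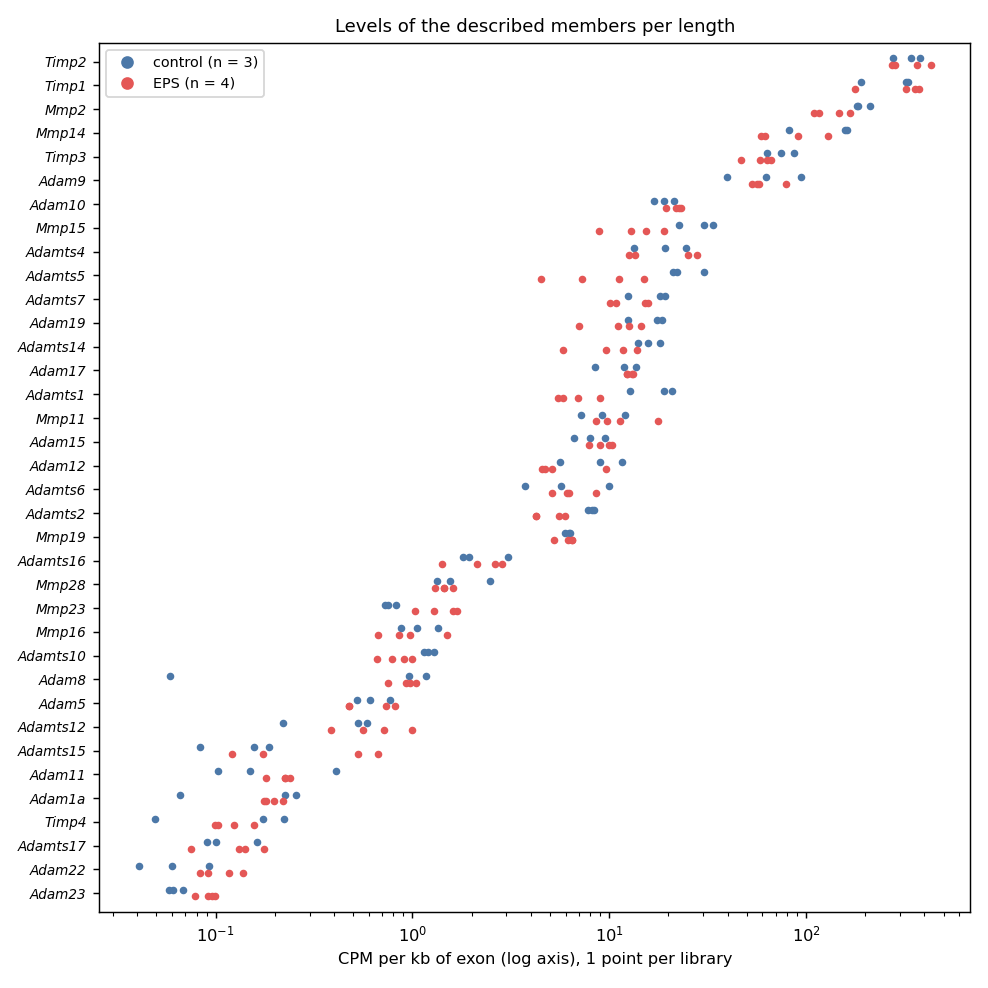
Each point is 1 library, blue for control (n = 3) and red for EPS (n = 4), and the horizontal log axis gives CPM per kb of exon for the 36 described genes, ordered by their mean. The genes run from Timp2 (mean 335) to Adam23 (mean 0.079), and the red points of Adamts1, Adamts5 and Mmp15 lie to the left of the blue points.

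The proteoglycan-cutting members with at least 0.5 CPM were Adamts1, Adamts4, Adamts5 and Adamts15, while Adamts8, Adamts9 and Adamts20 were below that level. Adamts1 lies at chr16:85793827-85803113 on the minus strand of GRCm38. Adamts1 was at 111, 100.3 and 67.3 CPM in control replicates 1, 3 and 4 and at 47.7, 29.1, 30.9 and 36.8 CPM in EPS replicates 1 to 4. Every EPS library lay below every control library. The means were 92.8 ± 22.8 (SD, n = 3) and 36.1 ± 8.37 CPM (SD, n = 4). The log2 fold change was -1.33 (SE 0.23), with P = 0.000284 and a Benjamini-Hochberg adjusted p of 0.0730 in limma, and p = 0.0286 in the exact two-sided permutation test, the smallest that 3 libraries against 4 allow. Over the alternatives the adjusted p of Adamts1, from limma, edgeR or DESeq2, ran from 9.1e-06 to 0.510. Adamts1 was called lower in all 15 alternatives run, with log2 fold changes from -1.55 to -1.19.

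Adamts5 lies 53.1 kb from Adamts1 on the same strand, at chr16:85856173-85901828. Its control values were 326, 226 and 239 CPM, and its EPS values were 162, 78.4, 120.5 and 48.8 CPM. The groups did not overlap, and EPS replicate 4 was the lowest library. Means were 264 ± 54.3 (SD, n = 3) and 102.5 ± 49.5 CPM (SD, n = 4), and the log2 fold change was -1.47 (SE 0.37). The limma test gave P = 0.0033 and an adjusted p of 0.166 (0.00358 to 0.523 over the alternatives), and the exact permutation test gave p = 0.0571. Without control replicate 1, the value was -1.31 and its P of 0.0132 missed the threshold. The ratio of Adamts5 to Adamts1 was between 2.26 and 3.55 in the control libraries and between 1.32 and 3.9 in the EPS libraries, so the groups overlapped in it.

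The groups overlapped for the remaining 2 of these genes. Adamts4, a versican- and aggrecan-cutting protease, was at 92.0, 64.6 and 117 CPM in the control libraries and at 65.3, 121, 135 and 60.4 CPM in the EPS libraries. Its log2 fold change was 0.01 (SE 0.33), and its sign turned under several settings, median-of-ratios scaling among them. Adamts15, another versican-cutting member, was low, with 1.47 ± 0.549 CPM (SD, n = 3) in control and 3.87 ± 2.77 CPM (SD, n = 4) in EPS, the latter carried by EPS replicates 2 and 3 with 5.46 and 6.94 CPM. Its log2 fold change was 0.81 (SE 0.45) in limma, and 0.51 without EPS replicate 3. Its P was 0.109 in limma, 0.0191 in edgeR and 0.0231 in DESeq2, so it was not called. Summed over Adamts1, Adamts4 and Adamts5, the level was between 391 and 529 CPM in the control libraries and between 146 and 286 CPM in the EPS libraries. Adamts1 and Adamts5, both called lower, are part of this sum, and Adamts15 is not, so the sum is no separate result.

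Procollagen N-proteinases, which cut the amino-terminal end of procollagens before fibrils form, are encoded by Adamts2, Adamts3 and Adamts14, of which Adamts3 was under 0.5 CPM. Adamts2 was at 76.0, 72.6 and 77.9 CPM in the control libraries and at 55.9, 39.6, 51.8 and 39.8 CPM in the EPS libraries. Its control libraries lay close together, and the highest EPS library was well below them. The means were 75.5 ± 2.67 (SD, n = 3) and 46.8 ± 8.33 CPM (SD, n = 4), which is 62.0% of control. The log2 fold change was -0.69 (SE 0.17), with P = 0.00241 in limma and p = 0.0286 in the exact permutation test, and it missed the 2-fold threshold. Its limma adjusted p was 0.146 (0.0182 to 0.542 over the alternatives), and DESeq2 gave the lowest of these. Adamts14 was at 94.5, 72.8 and 81.4 CPM in control and at 60.9, 50.2, 72.35 and 30.4 CPM in EPS. Its log2 fold change was -0.68 (SE 0.27), with an adjusted p of 0.379 in limma (0.188 to 0.626 over the alternatives) and p = 0.0571 in the exact permutation test. Without EPS replicate 4, the log2 fold change was -0.44. EPS replicate 3 lay just under control replicate 3, so the groups were barely apart.

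The remaining 6 Adamts genes were Adamts6, Adamts7, Adamts10, Adamts12, Adamts16 and Adamts17. Adamts7, which cuts cartilage oligomeric matrix protein, was at 121, 113.5 and 78.6 CPM in control and at 67.8, 95.9, 98.8 and 63.4 CPM in EPS, with a log2 fold change of -0.36 (SE 0.22). Its groups overlapped. Adamts10, a protease tied to fibrillin microfibrils, was the only one of the 6 whose groups did not overlap, at 9.999 ± 0.593 CPM (SD, n = 3) and 6.91 ± 1.17 CPM (SD, n = 4), and it missed the threshold with an adjusted p of 0.460 in limma. Adamts6 was at 50.3 ± 24.8 and 50.8 ± 11.5 CPM, Adamts16 at 15.6 ± 4.75 and 15.4 ± 4.35 CPM, and Adamts12, a relative of Adamts7, at 4.87 ± 2.17 and 7.27 ± 2.84 CPM (SD, n = 3 and 4). Control replicate 4 was the lowest library for Adamts12, at 2.40 CPM. Summed over the 12 described Adamts genes, the level was between 717 and 897 CPM in control and between 342 and 596 CPM in EPS. This sum includes Adamts1 and Adamts5, which were called lower. The sum of the 8 Mmp genes was between 1293 and 1921 CPM in control and between 853 and 1443 CPM in EPS. That of the 12 Adam genes was between 519 and 877 CPM and between 621 and 716 CPM, so both overlapped.

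**Figure D3:**
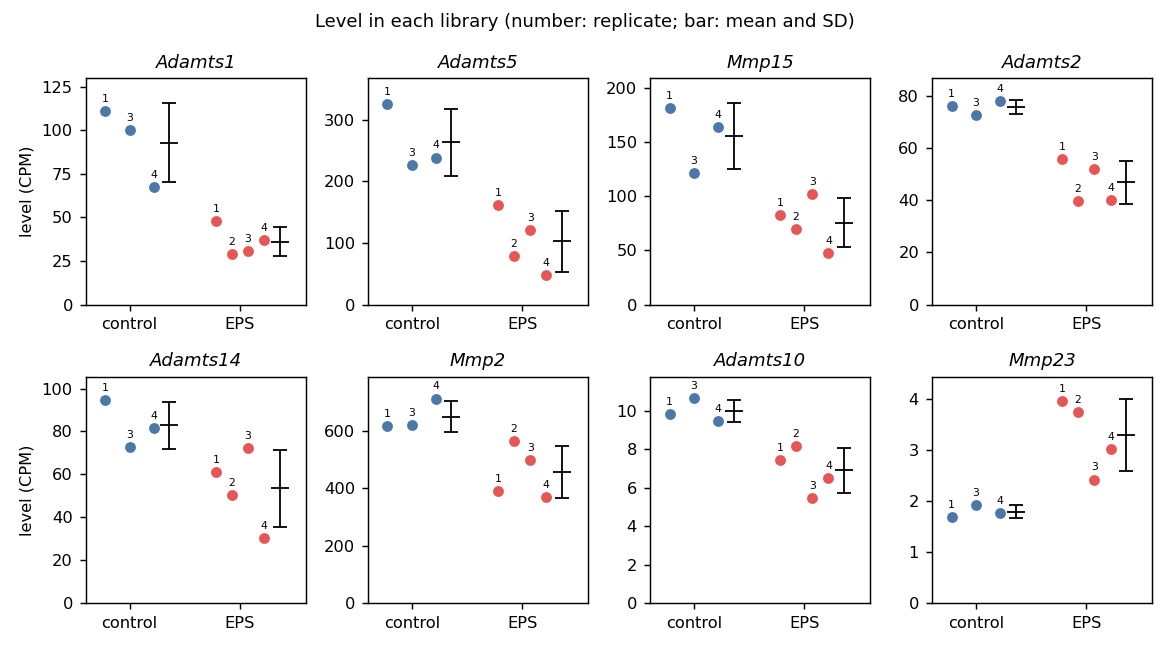
Level in CPM (vertical axis, from 0) of 8 members in each control library (blue, n = 3) and each EPS library (red, n = 4), with the replicate number above each point and a bar for the mean and SD. In all 8 panels the groups do not overlap, with the EPS libraries lower in 7 panels and higher for Mmp23.

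Among the MMPs, the membrane-type members with at least 0.5 CPM were Mmp14, Mmp15 and Mmp16, while Mmp17 and Mmp24 were below that level and Mmp25 had no read. Mmp15 lies at chr8:95352268-95375080 on the plus strand. Mmp15 was at 181, 122 and 164 CPM in control replicates 1, 3 and 4 and at 82.8, 69.7, 102 and 48.1 CPM in EPS replicates 1 to 4. The groups did not overlap. The means were 156 ± 30.7 (SD, n = 3) and 75.7 ± 22.7 CPM (SD, n = 4), and the log2 fold change was -1.06 (SE 0.26). The limma test gave P = 0.00271 and an adjusted p of 0.154 (0.00547 to 0.568 over the alternatives), and the exact permutation test gave p = 0.0571. This call rested on single libraries, since the value was -0.87 without EPS replicate 4, under 2-fold, and -0.95 without control replicate 1, where the limma P of 0.0118 missed the threshold.

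Mmp14 encodes the membrane protease that activates the precursor of MMP-2. Mmp14 was at 939, 486 and 968 CPM in control and at 544, 351, 772 and 369 CPM in EPS, so its groups overlapped. Its log2 fold change was -0.66 (SE 0.36), with an adjusted p of 0.526 in limma and p = 0.143 in the exact permutation test. Mmp16 was at 9.50 ± 2.10 CPM (SD, n = 3) and 8.66 ± 3.06 CPM (SD, n = 4). These 3 membrane-type genes had negative log2 fold changes, against 36.7% of all genes tested, and 1 was called lower, against 0.439%. The low Mmp17 and Mmp24 had positive log2 fold changes of 0.17 and 0.26 and were not called.

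Mmp2, the gelatinase that cuts type IV collagen, was the MMP gene with the highest level per length. It was at 616, 620.3 and 713 CPM in control and at 391, 563, 498 and 370.3 CPM in EPS. No EPS library reached the lowest control library. The means were 649.6 ± 54.6 (SD, n = 3) and 455 ± 90.9 CPM (SD, n = 4), and the log2 fold change was -0.53 (SE 0.21), with an adjusted p of 0.383 in limma (0.0762 to 0.693 over the alternatives) and p = 0.0571 in the exact permutation test. The other gelatinase, Mmp9, stayed under 0.5 CPM. Mmp23, a small membrane-anchored MMP, was the only described MMP gene with all EPS libraries higher, at 1.69, 1.93 and 1.76 CPM in control and 3.96, 3.75, 2.42 and 3.03 CPM in EPS. Its log2 fold change was 0.60 (SE 0.21), with an adjusted p of 0.315 in limma (0.249 to 0.613 over the alternatives) and p = 0.0571 in the exact permutation test. Mmp11, the stromelysin that furin activates, was at 26.2 ± 6.68 and 32.9 ± 11.4 CPM, Mmp19 at 21.9 ± 0.637 and 21.4 ± 2.03 CPM, and Mmp28 at 6.92 ± 2.34 and 5.62 ± 0.469 CPM (SD, n = 3 and 4), and all 3 overlapped between the groups. Control replicate 4 was the highest library for Mmp28, at 9.58 CPM. The collagenases Mmp8 and Mmp13 were under 0.5 CPM, and Mmp1a and Mmp1b had no read.

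None of the 4 inhibitors passed the thresholds in limma, edgeR or DESeq2. At an unadjusted P under 0.05, limma and edgeR called 0 of the 4, and DESeq2 called 1 lower, Timp3, against 5.42% of all genes tested. Timp2, which also links MMP-14 to the MMP-2 precursor, was at 1472, 1330 and 1080 CPM in control and at 1061, 1679, 1421 and 1102 CPM in EPS. Its log2 fold change was 0.01 (SE 0.30), with a sign that turned under median-of-ratios scaling but not under quantile normalization. Timp3, the member that also inhibits ADAM and ADAMTS proteases, was at 707, 609.8 and 518 CPM in control and at 540.4, 477, 518 and 379 CPM in EPS, with a log2 fold change of -0.35 (SE 0.21). Timp1 was at 169, 293 and 287 CPM in control and at 333, 285, 157 and 316 CPM in EPS, with a log2 fold change of 0.11 (SE 0.31). Timp4 was near the lower limit, at 0.875 ± 0.526 CPM (SD, n = 3) and 0.711 ± 0.157 CPM (SD, n = 4). The groups overlapped for each of the 4 genes, and their sum was between 1886 and 2349 CPM in control and between 1798 and 2443 CPM in EPS.

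No Adam gene passed the thresholds in limma, edgeR or DESeq2, and the log2 fold change was positive for 8 of the 12 (66.7%), against 63.3% of all genes tested. At an unadjusted P under 0.05, limma called 0 of the 12, and edgeR and DESeq2 each called 2 lower, Adam12 and Adam19, against 5.95% and 5.42% of all genes tested. Among the sheddases, Adam10, which releases Notch receptors and their ligands, was at 105, 93.0 and 82.8 CPM in control and at 107, 95.8, 114 and 111 CPM in EPS, with a log2 fold change of 0.19 (SE 0.14). Adam17, which releases TNF and ligands of the EGF receptor, was at 80.9 ± 18.9 CPM (SD, n = 3) and 91.2 ± 3.28 CPM (SD, n = 4), with a log2 fold change of 0.20 (SE 0.17) that was 0.0015 without control replicate 4. The groups overlapped for both genes.

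The meltrins Adam9, Adam12 and Adam19 are expressed by myoblasts, and Adam12 is linked to their fusion. Adam9 was at 257, 389 and 162 CPM in control and at 219, 327, 232 and 237 CPM in EPS, and Adam12 was at 92.6 ± 32.2 CPM (SD, n = 3) and 63.6 ± 25.5 CPM (SD, n = 4). Adam19 was at 131, 124 and 88.2 CPM in control and at 78.6, 90.0, 103 and 50.1 CPM in EPS, with a log2 fold change of -0.53 (SE 0.26) and p = 0.171 in the exact permutation test. Without EPS replicate 4, its log2 fold change was -0.33. The groups overlapped for all 3. Adam15 was at 49.5 ± 8.89 and 56.9 ± 6.74 CPM (SD, n = 3 and 4). Adam8 was at 4.43, 5.42 and 0.271 CPM in control replicates 1, 3 and 4 and at 3.49, 4.53, 4.29 and 4.83 CPM in EPS, so that control replicate 4 alone set its log2 fold change of 0.57, which was -0.17 without that library.

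Adam11, Adam22 and Adam23 lack protease activity and bind LGI proteins at synapses. Adam23 was at 1.12 ± 0.0965 CPM (SD, n = 3) and 1.64 ± 0.162 CPM (SD, n = 4), with all EPS libraries above the control libraries, a log2 fold change of 0.32, an adjusted p of 0.440 in limma and p = 0.0286 in the exact permutation test. Adam22 was at 0.922 ± 0.375 and 1.54 ± 0.353 CPM, and Adam11 at 1.24 ± 0.929 and 1.23 ± 0.143 CPM (SD, n = 3 and 4). Control replicate 4 was the highest library for Adam11, at 2.31 CPM, and the lowest for Adam1a, at 0.497 CPM. Adam1a and Adam5, known from the testis, were at 1.37 ± 0.766 and 1.45 ± 0.152 CPM and at 1.98 ± 0.394 and 1.96 ± 0.551 CPM. Adam1a shares 63.7% of its exon bases with another gene on the same strand, so its reads cannot be assigned to it with certainty. Adamts17 had a mean of 0.974 CPM and overlapping groups.

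**Figure D4:**
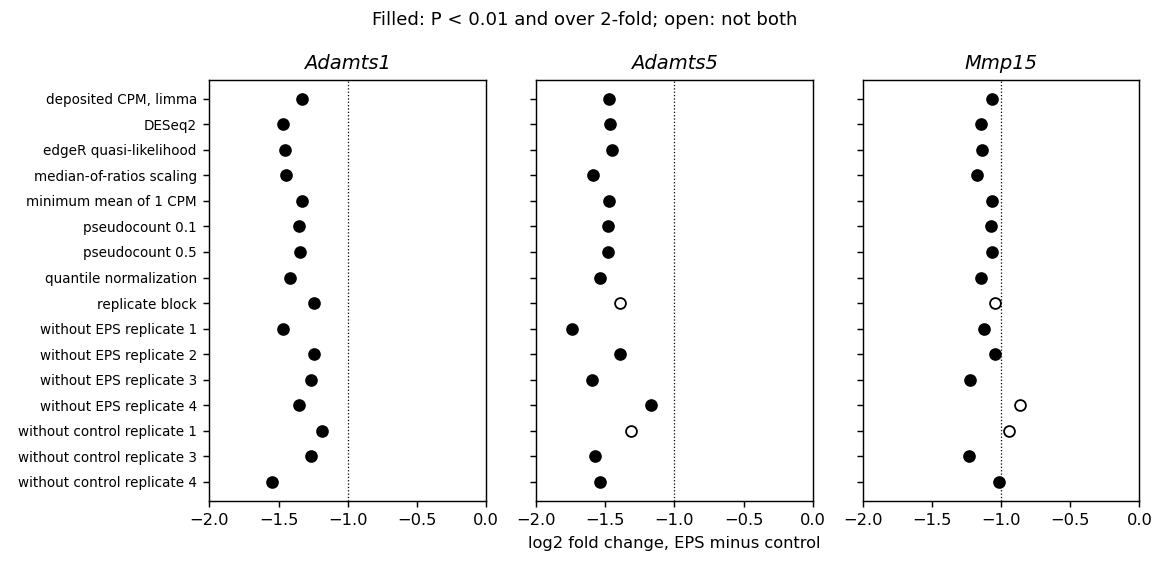
The log2 fold change (horizontal axis, EPS minus control) of the 3 genes called lower is shown for the deposited CPM in limma and for each of 15 alternatives, with a dotted line at a 2-fold change. Filled points pass P under 0.01 and 2-fold, and open points do not; Adamts1 is filled in all 15 alternatives, Adamts5 in 13 and Mmp15 in 12.

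The promoters of members whose EPS libraries all lay below the control libraries are shown because the groups did not overlap in these genes. RefSeq windows on GRCm38.p6 were matched for 22 of the 36 described genes, and among the 7 these are Adamts1 (chr16:85803114-85803363, minus strand), Mmp15 (chr8:95352046-95352295, plus strand), Adamts2 (chr11:50601835-50602084, plus strand) and Adamts14 (chr10:61273420-61273669, minus strand). Each is the 250 bases upstream of the start site, 5′ to 3′ on the strand of the gene. Capitals mark matches, on either strand, to 4 motifs, the xenobiotic response core GCGTG, the antioxidant response core TGACNNNGC, the AP-1 site TGANTCA and the TEAD site GGAATG.

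Adamts1: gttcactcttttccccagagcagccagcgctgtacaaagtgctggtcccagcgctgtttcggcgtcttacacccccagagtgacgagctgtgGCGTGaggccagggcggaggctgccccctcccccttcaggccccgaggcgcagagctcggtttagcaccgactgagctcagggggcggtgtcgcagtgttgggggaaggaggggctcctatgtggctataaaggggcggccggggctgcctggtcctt
Mmp15: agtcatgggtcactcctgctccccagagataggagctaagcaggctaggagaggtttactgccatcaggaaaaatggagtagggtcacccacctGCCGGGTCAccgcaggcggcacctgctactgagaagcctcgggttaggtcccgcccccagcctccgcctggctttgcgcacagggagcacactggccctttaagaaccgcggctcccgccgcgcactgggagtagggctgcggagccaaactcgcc
Adamts2: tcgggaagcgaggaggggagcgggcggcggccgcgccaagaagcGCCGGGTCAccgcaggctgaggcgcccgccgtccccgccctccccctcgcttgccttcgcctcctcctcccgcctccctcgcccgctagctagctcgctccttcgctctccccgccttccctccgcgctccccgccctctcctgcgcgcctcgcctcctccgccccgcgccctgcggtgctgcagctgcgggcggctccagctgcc
Adamts14: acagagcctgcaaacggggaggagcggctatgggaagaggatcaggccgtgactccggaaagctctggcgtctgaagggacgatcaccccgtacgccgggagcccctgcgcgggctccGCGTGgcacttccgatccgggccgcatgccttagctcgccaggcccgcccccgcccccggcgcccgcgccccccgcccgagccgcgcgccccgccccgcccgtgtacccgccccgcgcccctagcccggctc

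Adamts1 holds GCGTG at -158 and Adamts14 at -132, while Mmp15 holds TGACNNNGC, on the opposite strand, at -156 and Adamts2 at -206. GCGTG is in 28.2% of 32851 windows of this length and in 13 of the 25 windows of the 22 described genes. Those 25 windows have a median GC content of 62% against 52.4% over all windows. TGACNNNGC is in 10.2% of all windows and in 4 of the 25. The AP-1 letters are in 6.7% and the TEAD letters in 12.6% of all windows, and neither is in the 4 printed windows. A match describes the letters of the window and is not a binding site.

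The genes around these enzymes were taken from lists of regulators, relatives and substrates, and their counts stand against 0.439% lower and 0.966% higher past both thresholds in limma over all genes tested, and 3.21% and 8.4% at an unadjusted P under 0.05. Past both thresholds, edgeR called 1.57% of all genes lower and 1.72% higher, and DESeq2 1.4% and 1.66%. Of 24 tested regulators and activators of these proteases, 1 was called lower and 0 higher in limma, with 2 lower (Plat, Plau) and 2 higher (Bsg, Plg) at an unadjusted P under 0.05, while edgeR and DESeq2 each called 2 lower (Plat, Plau) and 1 higher (Plg, near 0 with no read in control and at most 0.425 CPM in EPS). The gene called in limma was Plat, the tissue plasminogen activator, which fell by 1.15 on the log2 scale, with means of 84.3 ± 20.2 CPM in control and 37.1 ± 6.43 CPM in EPS (SD, n = 3 and 4) and a Benjamini-Hochberg adjusted p of 0.0762 in limma. Its relative Plau, urokinase, had a log2 fold change of -0.96 and missed the 2-fold threshold. Of 22 tested membrane proteins that ADAM10 or ADAM17 release, 2 were called lower and 0 higher in limma, with 3 lower (Hbegf, Jag1 and Sdc1) and 1 higher (Areg) at an unadjusted P under 0.05, and edgeR and DESeq2 each called 2 lower (Hbegf, Jag1) and 1 higher (Areg). Areg, another ligand of the EGF receptor, was low, at 0.0583, 0.361 and 0 CPM in control and at 0.652, 0.974, 0.503 and 2.55 CPM in EPS. Hbegf, a ligand of the EGF receptor, fell from 43.8 ± 4.84 to 20.3 ± 2.51 CPM (log2 fold change -1.07), and Jag1, a ligand of Notch, fell from 32.2 ± 4.96 to 12.1 ± 4.07 CPM (log2 fold change -1.39), each with SD over n = 3 and 4. In limma, 0 of 14 tested ADAMTS-like genes and other metzincins were called, with 1 higher (Mep1a, near 0 with at most 0.140 CPM in any library) at an unadjusted P under 0.05 and 0 calls in edgeR and DESeq2. Of 17 tested proteoglycans and procollagens, limma called 0, with 1 lower (Lum) and 1 higher (Comp) at an unadjusted P under 0.05, and edgeR and DESeq2 each called 1 lower (Lum). Among them was Vcan, which encodes versican, at 334 ± 59.0 and 316 ± 78.3 CPM (SD, n = 3 and 4) with overlapping groups.

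The labelled cell type was checked against listed markers, chosen with earlier results of these data known. Their counts stand against the same shares of calls. Over all genes tested, 36.7% had a negative and 63.3% a positive log2 fold change. All 11 listed myotube markers had negative log2 fold changes, of which 1, Myh4, was called in limma and 2 in each of edgeR and DESeq2, and their sum was between 16463 and 22615 CPM in control and between 10802 and 18334 CPM in EPS. All 6 cycling-cell markers had positive log2 fold changes, with 0 called in limma, 4 higher at an unadjusted P under 0.05 and 2 called higher in each of edgeR and DESeq2, and their sum was between 337 and 389 CPM in control and between 413 and 1123 CPM in EPS. Of the 5 myoblast markers, 4 had negative log2 fold changes and 0 were called in limma, edgeR or DESeq2, with 1 (Myod1) lower at an unadjusted P under 0.05 in limma, and their sum was between 3359 and 6538 CPM in control and between 2813 and 4088 CPM in EPS. Myod1 was at 136, 99.8 and 160.1 CPM in control and at 59.2, 93.9, 88.8 and 48.0 CPM in EPS, and the EPS libraries all lay below the control libraries in it and in Cdh15, as in 2.85% of all genes tested. EPS replicate 4, the lowest library for Adamts5 and Mmp15, had the highest cycling sum and the lowest myotube sum. Adamts1 was lowest in EPS replicate 2, which had the lowest cycling sum of the EPS libraries (413 CPM) and a myotube sum of 13137 CPM. Among the EPS libraries, Adamts5 was highest in replicate 1, with a cycling sum of 801 CPM and a myotube sum of 18334 CPM. Without EPS replicate 4, Adamts1 and Adamts5 were still called lower, with log2 fold changes of -1.35 and -1.17, while Mmp15, at -0.87, was under 2-fold and no longer called. The part of these shifts in the results was not tested. In bulk libraries, fewer cells of a type cannot be told apart from less RNA per cell. The summed adipocyte markers were between 19.3 and 46.4 CPM in control and between 24.1 and 31.3 CPM in EPS, carried by Cebpa and Pparg, while Adipoq, Plin1 and Fabp4 were at or near 0. The osteoblast markers summed to between 38.9 and 77.9 CPM in control and between 62.5 and 78.3 CPM in EPS, nearly all from Runx2, with Ibsp at 0 and Bglap at or near 0. The macrophage markers summed to between 0.641 and 1.09 CPM in control and between 1.26 and 2.76 CPM in EPS, mostly from Cd68, with Ptprc at or near 0, and the endothelial markers to under 1 CPM in every library. The sums of the macrophage markers did not overlap between the groups. Of the 3 tested, limma called 1 higher at an unadjusted P under 0.05, Csf1r, and 0 passed both thresholds in limma, edgeR or DESeq2. The EPS libraries all lay above the control libraries in Csf1r, with at most 0.690 CPM, while the groups overlapped in Cd68. The part of these markers in the results was not tested.

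Below 0.5 CPM, the genes were named after their values were seen. Adamts8, a neighbor of Adamts15 at 20.1 kb on chromosome 9, had 8, 4 and 17 reads in control and 5, 2, 4 and 1 in EPS. Mmp24 had 3, 1 and 2 reads in control and 7, 6, 6 and 8 in EPS, at least 2.01-fold higher against the floor of 3 reads per control library. Adamts20 had 1, 0 and 0 reads in control and 6, 4, 8 and 5 in EPS, at least 1.69-fold higher against the same floor. These bounds do not allow for the low genes that control replicate 4 lacks. Mmp10 had 28 reads in EPS replicate 4, 2 in EPS replicate 2 and none elsewhere. None of these 4 passed both thresholds in limma on log2(CPM + 1), in edgeR or in DESeq2.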

How the data were processed

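The members, the surrounding gene lists, the cell type markers, the motifs and the thresholds were chosen with earlier results of these data known. The authors prepared directional poly(A) libraries, sequenced reads of 100 bases, mapped them to GRCm38 with STAR 2.5.4b per the labels, and deposited CPM, 1 value per gene and library, with genes listed by symbol. The read counter, annotation and strand setting are not given in the sources used here, so reads of overlapping or antisense genes cannot be told apart. The methods of the study name edgeR, quantile normalization and log transformation, while the deposited values are on the linear CPM scale. In each library 100% of the values were whole multiples of 1 read, within a tolerance of 0.01 reads. The control libraries (replicates 1, 3 and 4) held 17152556, 16616917 and 22120641 reads, and the EPS libraries (replicates 1 to 4) held 21483135, 20527025, 21892568 and 18830229.

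From these CPM, log2(CPM + 1) of 19144 genes above 0 in at least 1 library was tested with limma 3.58.1 in R 4.3.3, with all 7 libraries, no covariate and a mean-variance trend, and Benjamini-Hochberg adjustment ran over all of them. Single genes were also tested by an exact two-sided permutation test over the 35 ways to divide 7 libraries into 3 and 4. On the recovered reads, edgeR 4.0.16 called 300 genes lower and 329 higher at P under 0.01 and 2-fold, and 290 at an adjusted p under 0.05, and DESeq2 1.42.0 was run as well. Further alternatives were a minimum mean of 1 CPM, pseudocounts of 0.1 and 0.5, median-of-ratios scaling, quantile normalization, the replicate number as a block, and leaving out each library. The tests were tried on simulated data before use. Values of every library are given for described members with an unadjusted limma P under 0.05 and for the 3 highest members of each family. All 78 symbols matched 1 gene of GENCODE M21, whose coordinates are used.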

Additional observations from a re-analysis of the deposited data

Results flagged for a closer look

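In the EPS group, the level of Adam12 in replicate 1 was 101.6 CPM, far from the other 3 libraries, which lay between 48.28 and 54.27 CPM. The level of Adam9 in EPS replicate 2 was 326.6 CPM, against 219.2 to 237.1 CPM in the other 3. These were 2 of the 36 described genes examined in the EPS group, and chance marks about 1 group in 20 in this way. The control group, with 3 libraries, was not examined.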

How the results depend on the processing

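At the thresholds of P under 0.01 and 2-fold, 3 members were called lower in the deposited CPM and in DESeq2, edgeR, both scalings, both pseudocounts and with a minimum mean of 1 CPM. Leaving out 1 library at a time gave 1 to 3, with 1 (Adamts1) without control replicate 1 and 2 without EPS replicate 4. Over all genes, 103 were called lower without control replicate 1 and 57 without EPS replicate 4, against 84 with all 7 libraries. With the replicate number as a block, 1 was called, Adamts1, with Adamts5 at -1.39 and Mmp15 at -1.04, their limma P of 0.0133 and 0.033 over the threshold. Same-numbered libraries correlated at 0.245, -0.447 and 0.0679 over 12256 genes, so the numbers were not treated as pairs. No setting called a member higher. At an adjusted p under 0.05, limma called 0 members, edgeR 3, DESeq2 4, and 1 with a minimum mean of 1 CPM or a pseudocount of 0.1. The same threshold called, over all genes, 27 in limma, 290 in edgeR and 497 in DESeq2. It called 121 with a minimum mean of 1 CPM and 106 with a pseudocount of 0.1. At P under 0.01 and 2-fold, calls over all genes numbered 84 lower and 185 higher in limma, 300 and 329 in edgeR, and 268 and 317 in DESeq2. They numbered 62 and 99 with the block, and 91 and 219 with a minimum mean of 1 CPM. Pseudocounts of 0.1 and 0.5 gave 156 and 445, and 117 and 255.

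The sign of the log2 fold change held in all alternatives for 22 of the 36 members and turned for 14, none of which was called in any of them. Adam11 was -0.14 in DESeq2 and -0.13 in edgeR, and Adam1a -0.012 in DESeq2. Adamts4 was -0.053 in DESeq2, -0.045 in edgeR, -0.097 with median-of-ratios scaling, -0.049 with quantile normalization and -0.13 with the block. Adamts6 was, in the same order, -0.097, -0.085, -0.010, -0.0038 and -0.039. Timp2 was -0.093 in DESeq2, -0.082 in edgeR, -0.10 with median-of-ratios scaling and -0.12 with the block, which also gave -0.010 for Adamts17 and 0.035 for Mmp19. The cause was not tested. With 1 library left out, the values ran from -0.15 to 0.38 for Adam11, -0.20 to 0.29 for Adam1a, -0.12 to 0.079 for Adam5, -0.17 to 1.00 for Adam8, -0.34 to 0.29 for Adam9, -0.15 to 0.21 for Adamts16, -0.010 to 0.20 for Adamts17, -0.21 to 0.22 for Adamts4, -0.23 to 0.46 for Adamts6, -0.060 to 0.035 for Mmp19, -0.38 to 0.0071 for Mmp28, -0.14 to 0.36 for Timp1, -0.12 to 0.11 for Timp2 and -0.34 to 0.078 for Timp4. Adamts17 and Timp4 have no value with a minimum mean of 1 CPM.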

Other observations

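Mmp2, whose groups did not overlap by itself, was also compared within each library with its inhibitor Timp2, whose groups overlapped. The ratio of Mmp2 to Timp2 was 0.418, 0.467 and 0.660 in the control libraries and 0.368, 0.335, 0.350 and 0.336 in the EPS libraries, so that the groups did not overlap. The ratio was one of 8 that were computed, and the groups overlapped in the other 7, such as Mmp14 to Timp2, Mmp15 to Mmp14, Adam10 to Adam17 and Adamts2 to Adamts14.

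The printed windows of Mmp15 and Adamts2 share a run of 17 bases that contains the antioxidant response core and was noticed after the windows were read. It starts at -156 in Mmp15 and at -206 in Adamts2, and of the 32851 windows only 2, these, hold it on either strand. The run was found by comparing these 2 windows, so that both hold it was fixed. How often other pairs of windows share a run of this length was not counted. The longest shared run was between 7 and 13 bases in every other pair of printed windows. The run was not tested for any effect on the level of either gene.

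Mmp15 and Adamts2: gccgggtcaccgcaggc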
